A study of Mus musculus with 20 samples.

Results

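The genes described here belong to families with members that dock synaptic vesicles, fuse them with the nerve terminal or regulate that fusion. These are the synaptotagmins (Syt), syntaxins (Stx), vesicle-associated membrane proteins (Vamp), the genes with the Snap name and the complexins (Cplx). The RIM scaffolds (Rims), the Rab3 GTPases, the synapsins (Syn) and the SV2 glycoproteins (Sv2) complete the list. Other members act on other membranes, such as Stx6 in the trans-Golgi network, Vamp3 in recycling endosomes and Stx11 in immune cell granules. The genes were chosen by gene symbol alone, as transcript clusters, the probe groups of the array, that are paired with exactly 1 symbol of these families. Vamp8 was left out by name. The rule gave 59 genes, each with 1 transcript cluster, of 19938 genes with a transcript cluster of their own. They were 17 synaptotagmins, 14 syntaxins, 5 VAMPs, 5 Snap genes, 4 complexins, 4 RIMs, 4 Rab3 genes, 3 synapsins and 3 SV2 genes. The transcript cluster of Vamp2 is shared with Ubr3, so Vamp2 has no value of its own. The Snap name covers different proteins: Snap25 and its relatives Snap23, Snap29 and Snap47 are SNAREs, while Snap91 encodes the clathrin assembly protein AP180.

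Amygdala and hippocampus micropunches of WT and DKO mice were hybridised to 20 Affymetrix Mouse Gene 1.0 ST arrays. DKO mice lack the calcium-stimulated adenylyl cyclases AC1 and AC8 (Adcy1 and Adcy8). The mice were males on a C57BL/6 background, 2 mo old. Conditioned fear (CF) training was followed by collection after 0 hr, 1 hr, 48 hr or 1 wk, and other mice were taken before training as the baseline. Every combination of region, genotype and time had a single array that held pooled RNA of 5 to 10 mice. This left 5 arrays in each of 4 groups, WT and DKO amygdala and WT and DKO hippocampus. The 1 wk mice had also been through a testing trial. WT mice were C57BL/6 animals from outside the DKO litters. The DKO mice could carry 1 of the transgenes tetop-AC8 and CaMKII-tTA, and their parents were mated on doxycycline, which was kept until weaning. Both transgenes belong to a system in which the CaMKII promoter drives expression in the forebrain. Since arrays of a group differ in time point, the time points serve as its replicates, and whether both regions came from the same mice is not stated, so the p-values measure the spread between these arrays.

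At a nerve terminal, vesicles are held by synapsins and brought to the release site by Rab3 and RIM. A SNARE complex then forms between a VAMP on the vesicle and a syntaxin and a SNAP-25 family protein on the plasma membrane, complexin clamps and assists it, and calcium binding to a synaptotagmin triggers fusion. SV2 proteins are vesicle glycoproteins that bind synaptotagmin. The amygdala and the hippocampus are the regions whose synapses change in conditioned fear. Presynaptic cyclic AMP is known to enhance release, and phosphorylation of RIM and synapsin has been proposed as part of the route.

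Since the cyclases deleted here make cyclic AMP, the promoters of the genes were searched for the cyclic AMP response element. Promoter sequences of RefSeq (build GRCm38.p6, 250 bases before to 50 after each start) were found for 46 of the 59 genes, with 62 sequences in all. The motif TGACGTCA, which reads the same on both strands, was found in 1 of these 46 genes (2.17%), Syn1, and in 2.03% of all 27025 genes with such a sequence. Its core, TGACG on one strand and CGTCA on the other (these overlap within the full motif), was found in 13 of 46 genes (28.3%) against 23% of all genes. The core holds a CG pair, and promoters of these genes were richer in such pairs (median 18 against 7 for all promoters). Their median share of G and C was 62.3% against 52.7%. The part of this base content in the share with the core was not tested. By the region comparison below, it was found in 4 of 12 genes higher in the amygdala (33.3%) and 1 of 6 higher in the hippocampus (16.7%). Among the genes that did not differ, 8 of 28 held it (28.6%). The 250 bases before the start are shown for Sv2c and Vamp1, which had the largest difference between the regions in each direction, for Stx1a, whose regions did not overlap, and for Syn1, which holds the full motif. They are written 5′ to 3′ on the strand of the gene, and capitals mark every match to TGACG or CGTCA.
Sv2c, chr13:96132578-96132827, minus strand: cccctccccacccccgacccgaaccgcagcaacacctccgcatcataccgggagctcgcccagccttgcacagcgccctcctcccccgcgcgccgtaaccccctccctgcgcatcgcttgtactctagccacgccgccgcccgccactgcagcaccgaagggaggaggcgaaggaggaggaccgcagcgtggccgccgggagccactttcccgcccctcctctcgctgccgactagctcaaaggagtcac
Vamp1, chr6:125215331-125215580, plus strand: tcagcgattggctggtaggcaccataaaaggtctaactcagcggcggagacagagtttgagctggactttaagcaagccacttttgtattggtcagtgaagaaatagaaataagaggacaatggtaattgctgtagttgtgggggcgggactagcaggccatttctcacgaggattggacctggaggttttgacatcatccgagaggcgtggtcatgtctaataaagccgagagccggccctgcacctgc
Stx1a, chr5:135023232-135023481, plus strand: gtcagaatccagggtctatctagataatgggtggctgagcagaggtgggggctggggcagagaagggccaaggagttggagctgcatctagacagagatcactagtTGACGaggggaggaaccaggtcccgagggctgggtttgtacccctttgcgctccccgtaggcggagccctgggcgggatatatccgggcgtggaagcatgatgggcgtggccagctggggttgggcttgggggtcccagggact
Syn1, chrX:20920919-20921168, minus strand: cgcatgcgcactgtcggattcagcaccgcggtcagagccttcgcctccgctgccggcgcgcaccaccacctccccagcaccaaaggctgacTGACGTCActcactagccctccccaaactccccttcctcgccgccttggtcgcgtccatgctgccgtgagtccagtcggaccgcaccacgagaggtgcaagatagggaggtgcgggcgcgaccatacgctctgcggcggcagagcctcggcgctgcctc
The windows of Sv2c and Vamp1 hold no match, that of Stx1a holds 1, and that of Syn1 holds 2 overlapping matches that make up the full motif. The genes with no promoter sequence here were Cplx4, Rims2, Rims4, Snap25, Syn3, Syt12, Syt13, Syt17, Syt4, Syt5, Syt7, Vamp3 and Vamp7.

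On the arrays, 53 of the 59 genes lay above 6.75, the median log2 level of all transcript clusters. Levels of different genes rest on different probes and are not set against each other. On every DKO array Adcy1 and Adcy8 lay below every WT array of the same region. Medians of the 20 arrays ranged from 6.64 to 6.83 and correlations between arrays from 0.983 to 0.997. The mean over the 59 genes ranged from 8.11 to 8.35, and both 48 hr DKO arrays had the lowest values, 8.11 in the amygdala and 8.15 in the hippocampus. In bulk tissue, fewer cells of a type and less RNA per cell cannot be told apart.

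Of 13 hippocampal marker genes measured, 10 were higher in the hippocampus and 1, Wfs1, in the amygdala, and of 9 markers of the amygdala and the neighbouring striatum, 8 were higher in the amygdala. Other tissue also moved with the regions, while choroid plexus varied between the arrays of both. The mean level of the striatal list was 8.64 to 9.37 on amygdala arrays and 7.70 to 7.99 on hippocampus arrays. That of 8 thalamic markers, of which 7 were higher in the hippocampus, was 6.95 to 7.21 and 7.38 to 8.43. Markers of inhibitory neurons were higher in the amygdala for 6 of 8 genes, with mean levels of 9.12 to 9.45 against 8.85 to 9.18. Another, Pvalb, was higher in the hippocampus (0.87). Markers of excitatory neurons were higher in the hippocampus for 2 of 4 genes, Neurod6 (1.33) and Camk2a (0.46), and their mean level did not overlap between the regions, at 8.98 to 9.69 in the amygdala and 9.73 to 10.03 in the hippocampus. Of 5 markers of the basolateral amygdala and cortex, 4 were higher in the amygdala, with mean levels of 8.85 to 9.23 against 8.47 to 8.79. All 5 oligodendrocyte markers measured and 3 of 5 astrocyte markers were higher in the hippocampus. The part of these cells in the differences below was not tested.

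The comparison between the regions asks which genes of these families differ between amygdala and hippocampus. In all, 24 of the 59 genes differed (40.7%), 9 higher in the hippocampus and 15 higher in the amygdala. Over all 28853 transcript clusters 17.7% differed, 8.95% higher in the hippocampus and 8.78% lower. Since most of the genes are well expressed, the same share was taken above the median level, where 26.5% of all transcript clusters differed and 22 of the 53 genes. The differences were hippocampus minus amygdala on the log2 scale, from 10 arrays per region, tested with limma at an adjusted p of 0.05. The genes higher in the amygdala included SV2, Rab3, synapsin and synaptotagmin genes, and those higher in the hippocampus included Vamp1, Syt7 and Cplx2.

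**Figure D1:**
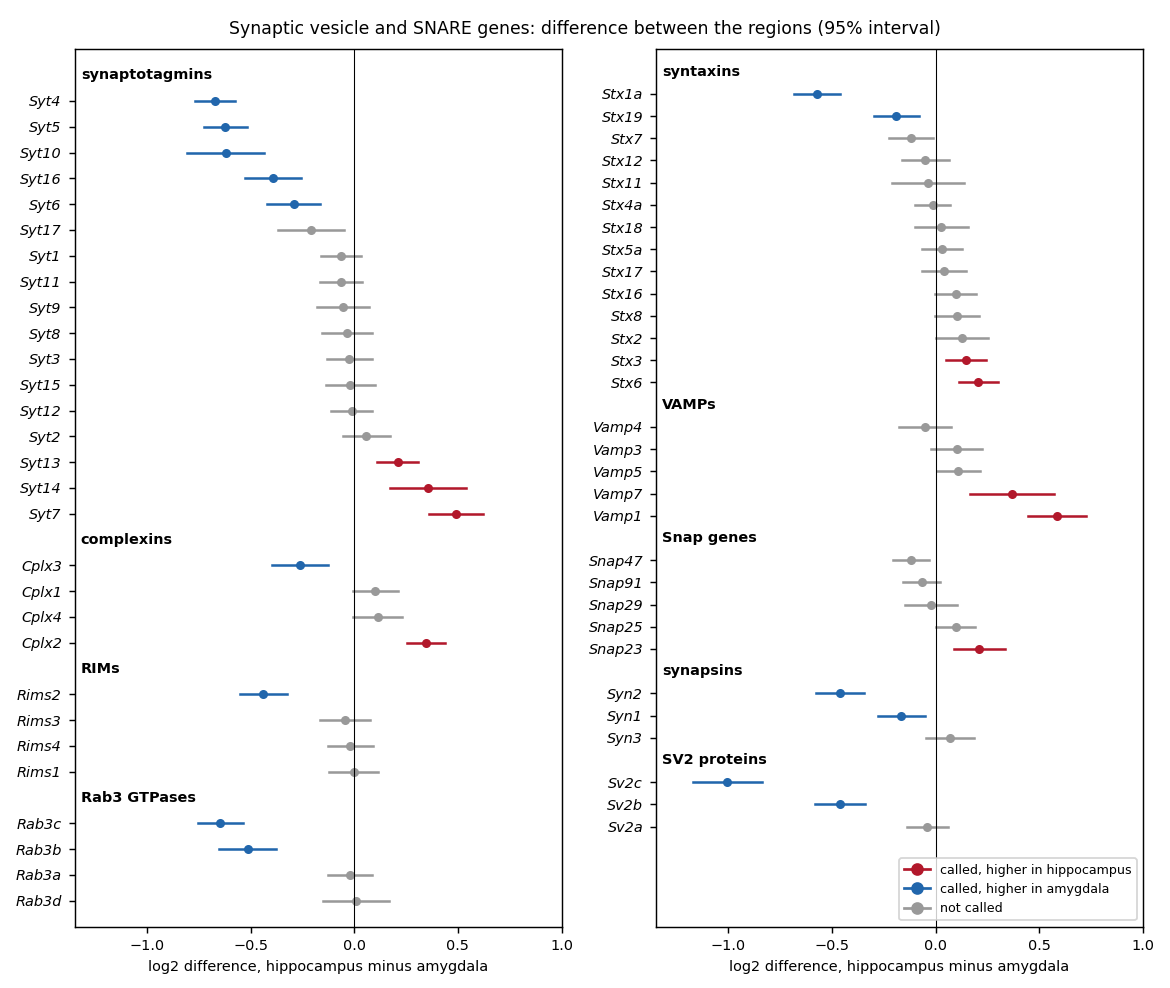
Difference between the regions for all 59 genes, by family. Points give hippocampus minus amygdala on the log2 scale over 10 arrays per region and lines the 95% interval; red marks the 9 genes higher in the hippocampus and blue the 15 higher in the amygdala, from Vamp1 at 0.59 to Sv2c at -1.01.

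The regions did not overlap at all for 9 genes. All 10 amygdala arrays lay above all 10 hippocampus arrays for Sv2c, Syt4, Rab3c, Syt5, Stx1a, Rab3b and Rims2, and all 10 hippocampus arrays lay above for Cplx2 and Syt7. Over all transcript clusters 3.8% had regions that did not overlap, 1.81% with the amygdala above and 1.99% with the hippocampus above.

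Among the synaptotagmins, the calcium sensors and their relatives, 5 of 17 were higher in the amygdala, 3 were higher in the hippocampus and 9 did not pass. Syt4, a synaptotagmin of dense core vesicles that lacks the usual calcium binding in its first C2 domain, had levels of 9.50 to 9.78 in the amygdala (median 9.67) and of 8.84 to 9.26 in the hippocampus (median 8.99). Its difference was -0.67 ± 0.047 (SE, adjusted p = 7.31e-11), a level 1.59-fold higher in the amygdala. Syt5 ranged from 8.37 to 8.91 in the amygdala (median 8.66) and from 7.96 to 8.20 in the hippocampus (median 8.03). For both genes the lowest amygdala array stayed above the highest hippocampus array. The difference of Syt5 was -0.62 ± 0.049 (adjusted p = 7.12e-10). Syt10, a sensor for the release of growth factor vesicles, was also higher in the amygdala by -0.62, with a larger error (SE 0.091, adjusted p = 1.24e-05). Its amygdala arrays, from 8.38 to 9.31 (median 8.76), overlapped with the hippocampus arrays, from 7.84 to 8.51 (median 8.18). Syt16 (-0.39, adjusted p = 7.52e-05) and Syt6 (-0.29, adjusted p = 0.00104) were higher in the amygdala by less.

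Syt7, the slow calcium sensor of asynchronous release and facilitation, went the other way. Its levels were 7.05 to 7.57 in the amygdala (median 7.37) and 7.66 to 8.05 in the hippocampus (median 7.81), so that the regions did not overlap. The difference was 0.49 ± 0.064 (adjusted p = 2.19e-06), a level 1.41-fold higher in the hippocampus. Syt14 (0.36, adjusted p = 0.0051) and Syt13 (0.21, adjusted p = 0.00215) were higher in the hippocampus too. The fast sensors of synchronous release did not pass: the difference was -0.06 for Syt1 (95% interval -0.16 to 0.03), 0.06 for Syt2 (-0.06 to 0.17) and -0.05 for Syt9 (-0.18 to 0.07). Syt1 ranged from 11.11 to 11.52 in the amygdala and from 11.27 to 11.41 in the hippocampus, and it passed after a further quantile normalization (-0.10, adjusted p = 0.0441).

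Of the plasma membrane SNAREs, Stx1a, a syntaxin of fast release, had levels of 7.75 to 8.08 in the amygdala (median 7.86) and of 7.08 to 7.45 in the hippocampus (median 7.34). The regions did not overlap, and the difference was -0.57 ± 0.054 (adjusted p = 1.25e-08), 1.49-fold higher in the amygdala. Stx19 was higher in the amygdala by -0.19 (adjusted p = 0.013). The hippocampus was higher for Stx6, a syntaxin of the trans-Golgi network (0.21, adjusted p = 0.00185), and for Stx3, a plasma membrane syntaxin (0.14, adjusted p = 0.0326), and the other 10 syntaxins did not pass. The call of Stx3 was lost when any 1 of 9 of the 20 arrays was left out (adjusted p up to 0.0724). Snap25, the partner of Stx1a in the SNARE complex, ranged from 12.10 to 12.45 in the amygdala (median 12.39) and from 12.36 to 12.60 in the hippocampus (median 12.45). Its difference did not pass (0.10, 95% interval 0.00 to 0.19, adjusted p = 0.157). Snap23, its widely expressed relative, was higher in the hippocampus by 0.21 (adjusted p = 0.0127), and at all 10 matched genotypes and time points.

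The vesicle SNARE Vamp1 (synaptobrevin 1) had the largest difference toward the hippocampus among the 59 genes. Its levels were 7.73 to 8.34 in the amygdala (median 8.04) and 8.27 to 8.94 in the hippocampus (median 8.63). The highest amygdala array reached just above the lowest hippocampus array, so the regions overlapped by a small margin. The difference was 0.59 ± 0.067 (adjusted p = 3.14e-07), 1.50-fold higher in the hippocampus. Vamp7, a tetanus toxin insensitive VAMP, followed with 0.37 ± 0.098 (adjusted p = 0.00896), from 7.79 to 8.83 in the amygdala (median 8.50) and from 8.46 to 9.07 in the hippocampus (median 8.81). Vamp3, Vamp4 and Vamp5 did not pass, with differences of 0.10, -0.05 and 0.11.

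The complexins, which bind the assembled SNARE complex, split. Cplx2 was higher in the hippocampus, from 8.76 to 9.0 (median 8.94) against 8.42 to 8.71 in the amygdala (median 8.60), with no overlap and a difference of 0.35 ± 0.045 (adjusted p = 2.54e-06). Cplx3, a complexin known from retinal ribbon synapses, was higher in the amygdala by -0.26 ± 0.066 (adjusted p = 0.00566). Its levels lay below the median of all transcript clusters, at 6.08 to 6.68 in the amygdala and 5.88 to 6.11 in the hippocampus. The highest amygdala arrays of Cplx3 stood apart, at 6.53 (WT, 48 hr) and 6.68 (DKO, 1 hr), with the next of their groups at 6.14 and 6.27. Cplx1 (0.10, 95% interval -0.01 to 0.21) and Cplx4 (0.11, -0.01 to 0.23) did not pass, and Cplx4 passed when the hippocampus WT array of 1 wk was left out (0.15, adjusted p = 0.0407).

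Of the active zone scaffolds and their Rab3 partners, Rims2 and 2 of 4 Rab3 genes differed, all higher in the amygdala. Rab3c had levels of 9.95 to 10.45 in the amygdala (median 10.29) and of 9.48 to 9.73 in the hippocampus (median 9.65). Rab3b ranged from 7.54 to 8.11 (median 7.78) and from 7.05 to 7.52 (median 7.32). Neither gene overlapped between the regions. The difference was -0.65 ± 0.053 for Rab3c (adjusted p = 1.26e-09) and -0.51 ± 0.067 for Rab3b (adjusted p = 2.22e-06). Rims2 had levels of 9.22 to 9.61 in the amygdala (median 9.35) and of 8.68 to 9.15 in the hippocampus (median 8.96), also without overlap, and a difference of -0.44 ± 0.055 (adjusted p = 1.34e-06). Rab3a, the best known Rab of synaptic vesicles, had a difference of -0.02 (95% interval -0.13 to 0.09), Rab3d one of 0.01 (-0.15 to 0.17) and Rims1 one of -0.00 (-0.12 to 0.11). Rims3 and Rims4 had differences of -0.05 and -0.02. The signs of the differences of Rab3a, Rab3d, Rims1 and Rims4 depended on the processing or on single arrays.

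Of the vesicle proteins proper, Sv2c had the largest difference of all 59 genes. Its amygdala levels were 9.13, 9.04, 9.43, 8.89 and 8.82 in WT mice at baseline, 0 hr, 1 hr, 48 hr and 1 wk, and 8.60, 8.79, 8.50, 8.66 and 9.14 in DKO mice. In the hippocampus they were 7.59, 7.81, 7.79, 8.02 and 7.96 in WT mice and 8.07, 7.79, 8.05, 7.89 and 7.97 in DKO mice. Every amygdala array lay above every hippocampus array, and the difference was -1.01 ± 0.081 (adjusted p = 8.01e-10), a level 2.01-fold higher in the amygdala. Sv2c is the SV2 form known from basal ganglia, and the striatal marker list was also higher on every amygdala array. Sv2b was higher in the amygdala by -0.46 ± 0.059 (adjusted p = 1.72e-06), from 10.34 to 10.86 (median 10.73) against 10.13 to 10.43 (median 10.21). Sv2a, the widely expressed form, did not pass (-0.04, 95% interval -0.14 to 0.06).

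Syn2, which encodes synapsin II, a protein that ties vesicles to actin, was higher in the amygdala, from 9.55 to 10.12 (median 9.91) against 9.32 to 9.63 (median 9.39), by -0.46 ± 0.056 (adjusted p = 9.2e-07). Syn1 differed by less, -0.17 ± 0.055 (adjusted p = 0.0356), and its call was lost with each array centred on its median (adjusted p = 0.066) and when any 1 of 12 of the 20 arrays was left out (adjusted p up to 0.0736). Syn3 did not pass (0.07, 95% interval -0.05 to 0.18).

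**Figure D2:**
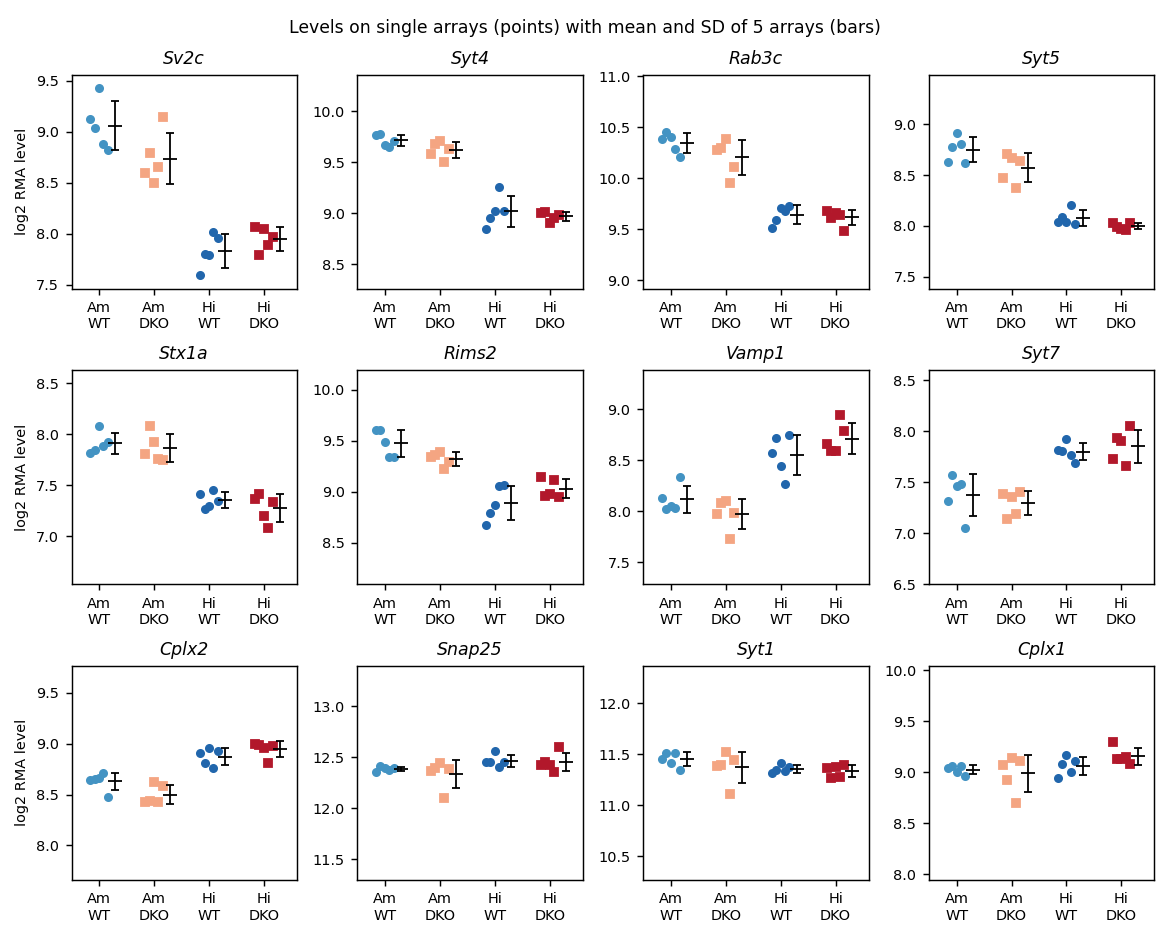
Log2 RMA levels of 12 genes on the 20 arrays. Each point is 1 array (Am, amygdala; Hi, hippocampus), bars are the mean and SD of 5 arrays, and every vertical axis spans the same range; the amygdala arrays of Sv2c lie between 8.50 and 9.43 and its hippocampus arrays between 7.59 and 8.07, while Snap25, Syt1 and Cplx1 overlap.

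The difference between the regions was then taken within each genotype. It passed for 15 of 59 genes in WT mice, 3 higher in the hippocampus and 12 in the amygdala. Of all transcript clusters 9.54% passed in WT mice, 3.37% higher in the hippocampus and 6.17% lower. It passed for 21 in DKO mice, 8 higher in the hippocampus and 13 in the amygdala. Of all transcript clusters 17.3% passed in DKO mice, 9.7% higher in the hippocampus and 7.58% lower. With each array centred on its median the DKO split was 14 and 12, and after a further quantile normalization it was 6 and 15. Of these genes, 14 passed in both genotypes, all in the same direction. They were Vamp1, Syt7, Cplx2, Sv2c, Sv2b, Syt4, Syt5, Syt10, Syt16, Rab3b, Rab3c, Rims2, Stx1a and Syn2. Syn1 passed in WT mice alone (-0.25, adjusted p = 0.0447, against -0.09, adjusted p = 0.44). In DKO mice alone, 7 genes passed: Vamp7, Syt14, Syt13, Syt6, Stx3, Stx6 and Cplx3. After the further quantile normalization Syt13 (0.15, adjusted p = 0.15) and Stx3 (0.15, adjusted p = 0.0935) no longer passed in DKO mice, and Syt13 was also lost without the DKO hippocampus array of 1 wk (0.21).

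Some differences were close in size in both genotypes and others were not. That of Syt4 was -0.69 in WT mice and -0.65 in DKO mice, that of Stx1a was -0.56 and -0.59, and that of Sv2b was -0.46 in both. Sv2c had -1.23 in WT mice and -0.78 in DKO mice, Syt10 -0.86 and -0.38, and Rims2 -0.59 and -0.29. Vamp1 had 0.43 and 0.74, Vamp7 had 0.11 and 0.62, and Cplx2 had 0.24 and 0.45. The mean level of the thalamic list in the hippocampus was 7.51, 7.56, 7.56, 7.38 and 7.97 on the WT arrays in the order of the time points, and 8.08, 7.99, 7.85, 8.43 and 7.88 on the DKO arrays. Its part in the larger DKO values was not tested. Whether these differences differed between genotypes is the same contrast as whether the genotype effect differed between regions. It passed for 0 of 59 genes, against 0.0104% of all transcript clusters. At an unadjusted p under 0.05, limma gave 11 genes, against 17.4% of all transcript clusters. The smallest p-values were those of Stx11 (-0.54 ± 0.168, adjusted p = 0.241), Stx17 (0.30 ± 0.103, adjusted p = 0.245), Sv2c (0.44 ± 0.161, adjusted p = 0.245), Rims2 (0.29 ± 0.110, adjusted p = 0.247) and Vamp7 (0.51 ± 0.196, adjusted p = 0.25).

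The loss of AC1 and AC8 was tested in each region by itself. The limit was an adjusted p of 0.1, and the arrays of the 5 time points counted as replicates of their genotype. None of the 59 genes passed in the amygdala, where 0.097% of all transcript clusters did, and none in the hippocampus, where 0.118% did. At an unadjusted p under 0.05, limma gave 8 genes in the amygdala and 6 in the hippocampus, against 6.82% and 11.4% of all transcript clusters. A t-test of the kind the methods name gave 0 in both regions after adjustment. The median difference of the 59 genes, DKO minus WT, was -0.08 in the amygdala and 0.00 in the hippocampus, beside -0.01 and -0.02 over all transcript clusters.

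In the amygdala the smallest p-values belonged to 5 genes with lower means in DKO mice. Syt10 differed by -0.39 ± 0.135 (95% interval -0.68 to -0.11, adjusted p = 0.646), from WT levels of 9.29, 8.93, 9.31, 8.69 and 8.83 and DKO levels of 8.49, 8.51, 8.68, 8.38 and 9.03 in the order of the time points. The genotypes overlapped, since the DKO array of 1 wk lay above 3 WT arrays. Sv2c differed by -0.32 ± 0.127, Syt14 by -0.30 ± 0.116, Stx6 by -0.22 ± 0.075 and Syt12 by -0.20 ± 0.070, each with an adjusted p of 0.646. The striatal marker list had means of 9.37, 9.06, 9.37, 8.85 and 8.78 on the WT amygdala arrays and of 8.64 to 8.84 on the DKO amygdala arrays. Its part in the differences of Sv2c and Syt10 was not tested. In the hippocampus the smallest p-values were those of Stx11 (-0.27 ± 0.095, adjusted p = 0.387), Syt9 (0.25 ± 0.092, adjusted p = 0.392), Syt2 (-0.23 ± 0.088, adjusted p = 0.397), Vamp7 (0.20 ± 0.085, adjusted p = 0.412) and Syt6 (-0.20 ± 0.086, adjusted p = 0.418). The thalamic list, at 7.38 to 7.97 on the WT and 7.85 to 8.43 on the DKO hippocampus arrays, differed in level between the same groups, and its part in these values was not tested. Over all 59 genes the 95% intervals of the genotype effect lay between -0.68 and 0.54 in the amygdala and between -0.47 and 0.44 in the hippocampus.

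**Figure D3:**
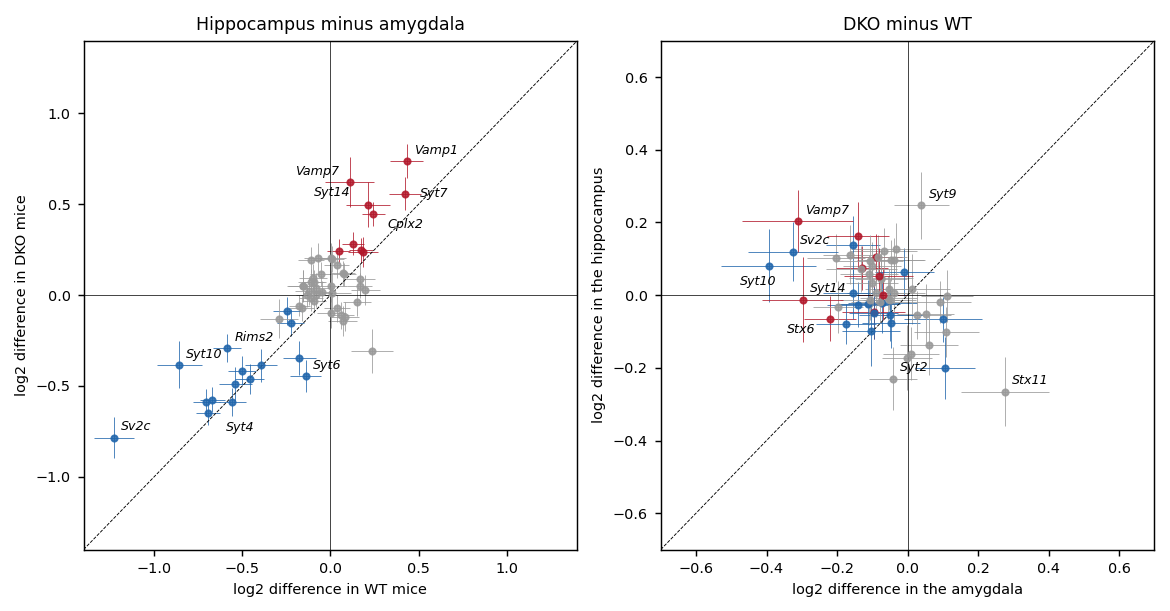
Log2 differences (± SE) of the 59 genes. The left panel sets hippocampus minus amygdala in DKO mice against the same in WT mice, and the right panel sets DKO minus WT in the hippocampus against the amygdala; colours are those of the region comparison (red, higher in hippocampus; blue, higher in amygdala; grey, not called), the dashed line marks equal values, and Sv2c lies at -1.23 and -0.78 on the left.

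The changes after CF training were tested with the 4 groups as replicates of a time point. None of the 59 genes passed at any of the 4 times. Over all transcript clusters 0.00347% passed at 0 hr, 0.0243% at 1 hr and, later, 0% at 48 hr and 0.00347% at 1 wk. At an unadjusted p under 0.05, limma gave 0, 6, 1 and 2 of the 59 genes at these times, against 2.58%, 6.16%, 3.59% and 3.12% of all transcript clusters. The median change of the genes was 0.04, 0.06, -0.06 and 0.04, and that of all transcript clusters was 0.03, 0.00, -0.03 and 0.03.

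At 1 hr the genes with the smallest p-values all had positive changes. They were Vamp3 (0.22 ± 0.076, adjusted p = 0.774), a VAMP of recycling endosomes, Snap29 (0.23 ± 0.091, adjusted p = 0.804), Snap23 (0.17 ± 0.067), Syt10 (0.29 ± 0.124) and Vamp7 (0.30 ± 0.144), the last 3 with an adjusted p of 0.809. At the other times every adjusted p of these genes was 1.0. At 0 hr the leading genes were Syn3 (0.16), Syt6 (0.18), Stx19 (0.14), Rab3d (0.20) and Vamp7 (0.22). At 48 hr they were Snap23 (-0.16), Stx16 (-0.13), Rims1 (-0.13), Syn1 (-0.11) and Syt17 (-0.17), and at 1 wk Syn3 (0.22), Stx2 (0.20), Vamp3 (0.12), Syt13 (0.11) and Stx3 (0.11). Snap23 thus had a positive value at 1 hr and a negative one at 48 hr, neither of which passed.

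Whether the changes differed between WT and DKO mice was tested with the regions as replicates. No gene passed at any time point, and no transcript cluster of the table did (0% at each). This form of test, run at 48 hr on simulated data, did not recover changes put into them, so a count of 0 does not show that changes were the same in both genotypes. At an unadjusted p under 0.05, limma gave 1, 1, 4 and 7 genes at the 4 times, against 5.1%, 1.92%, 13.1% and 17.9% of all transcript clusters. At 0 hr the leading values, DKO change minus WT change, were those of Vamp7 (0.51), Syt16 (-0.28), Vamp4 (0.27), Syt6 (-0.24) and Syt15 (-0.25). At 1 hr they were those of Stx18 (-0.40), Vamp5 (0.24), Syt6 (0.23), Syt2 (0.24) and Syt17 (0.23). At 48 hr Syt16 had -0.62 ± 0.150 (adjusted p = 0.324), followed by Rab3d (-0.52), Syt17 (-0.47), Sv2b (-0.41) and Stx11 (-0.46). The median of the 59 genes at 48 hr was -0.16 and that of all transcript clusters -0.15, and both 48 hr DKO arrays had the lowest mean levels. At 1 wk Stx11 had -0.64, Vamp7 0.56, Vamp4 0.36, Syt14 0.60 and Syt7 0.37. Syt14 passed at 1 wk when the hippocampus WT baseline array was left out (0.94, adjusted p = 0.0493), which raised the count from 0 to 2 genes.

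Single arrays were also set against the baseline array of their group, with no test since each is 1 array against 1. Of 944 values of 59 genes on 16 arrays, 7 were at least 1.5-fold above baseline and 3 at least 1.5-fold below. Over all transcript clusters 1.15% of such values were past this limit. They belonged to 6 genes, and 53 genes never passed it.

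Vamp7 passed the limit in the DKO amygdala at 0 hr (0.70), 1 hr (0.62) and 1 wk (0.79). Its levels there were 7.86 at baseline and 8.56, 8.49, 7.79 and 8.65 at the later times, so the baseline and 48 hr arrays were low and the other 3 lay within the range of the WT amygdala (8.37 to 8.83). Stx11, a syntaxin of immune cell granules, passed it in the WT amygdala at 48 hr (0.68) and 1 wk (0.66), from 6.28 at baseline to 6.96 and 6.94. In the DKO amygdala the levels of Stx11 were 7.15, 7.03, 6.87, 6.82 and 6.83. The WT baseline and 1 hr arrays, at 6.28 and 6.42, were thus the lowest of the amygdala. Syt10 was below baseline in the WT amygdala at 48 hr (-0.60) and above it in the WT hippocampus at 1 hr (0.66). The mean of the striatal list was 9.37 on that baseline array and 8.85 on the 48 hr array. Rab3d (0.64) and Syt14 (-0.61) passed the limit in the WT amygdala at 48 hr, and Syt17 (-0.60) in the DKO amygdala at 48 hr. Set against the mean of the WT and DKO baseline arrays of the region, no value of the 59 genes passed 1.5-fold, and at a limit of 1.3-fold against the own baseline 29 were above and 11 below.

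**Figure D4:**
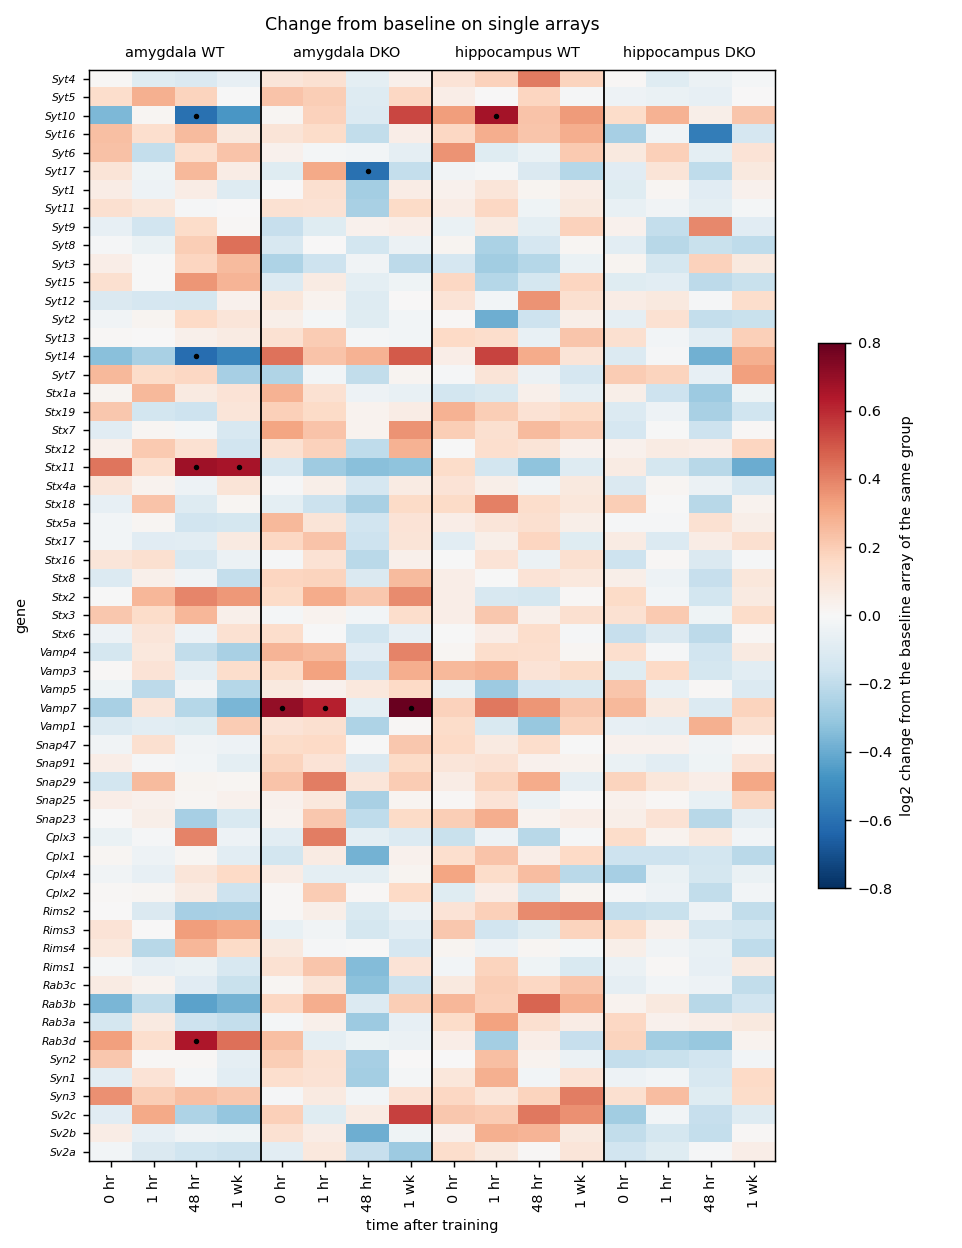
Change from the baseline array of the same region and genotype on the log2 scale, for 59 genes (rows, by family) and 16 arrays (columns). Colour gives the change, red above and blue below baseline, and dots mark the 10 values past 1.5-fold, among them 3 of Vamp7 in the DKO amygdala.

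**Figure D5:**
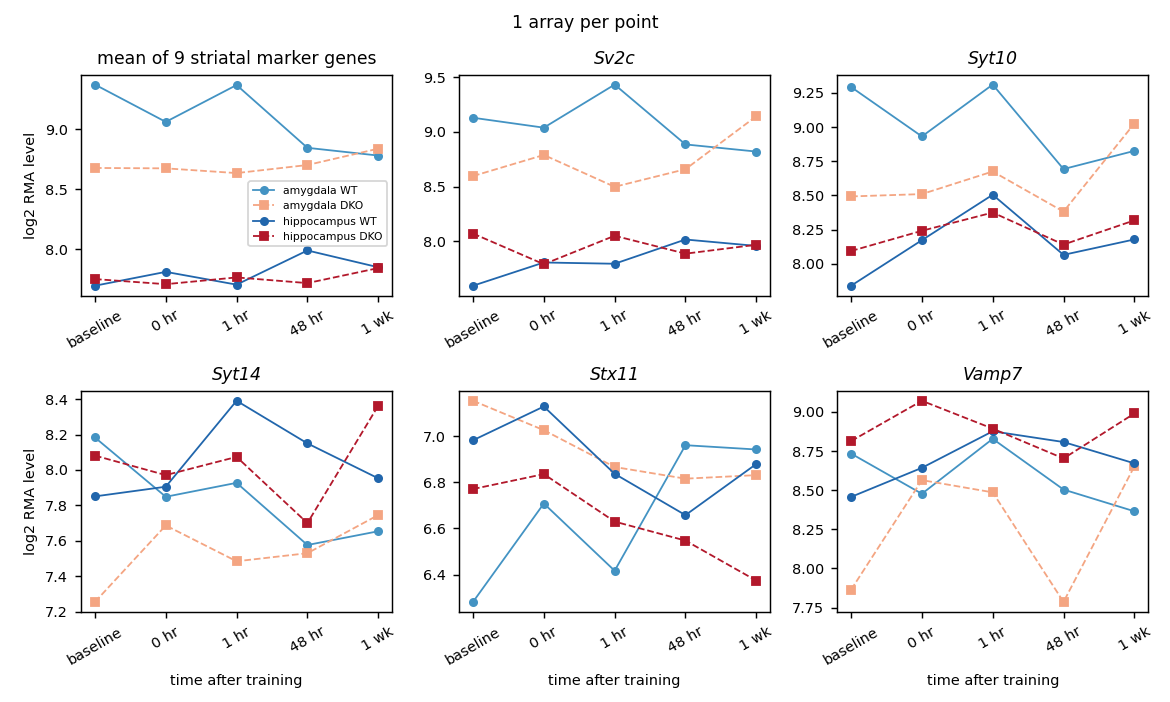
Log2 RMA levels over time, 1 array per point, for the mean of 9 striatal marker genes and for Sv2c, Syt10, Syt14, Stx11 and Vamp7. In the WT amygdala (solid light blue) the striatal mean went from 9.37 at baseline to 8.78 at 1 wk and Syt10 from 9.29 to 8.83, while Stx11 went from 6.28 to 6.94.

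Other genes of transmitter release were described with a list of 81 measured genes (93 transcript clusters). It held priming factors, active zone proteins, SNARE chaperones, endocytic proteins, calcium channels and transmitter transporters. Between the regions 18 of these genes were higher in the hippocampus and 20 in the amygdala. Counted as transcript clusters, 47 of 93 differed. Of all transcript clusters 17.7% did, and 26.5% of those above the median level. Toward the hippocampus the largest differences were those of Stxbp6 (amisyn, a SNARE binding protein, 1.06 ± 0.051, adjusted p = 1.62e-13), Ppfia2 (liprin-α2, an active zone scaffold, 0.90 ± 0.058, adjusted p = 1.97e-11) and Slc17a6 (a vesicular glutamate transporter, 0.78 ± 0.113, adjusted p = 1.18e-05). Slc17a6 is also among the thalamic markers. Its difference between the regions did not pass in WT mice alone (0.42, adjusted p = 0.117). In the hippocampus its DKO minus WT value was 0.60 ± 0.167 (adjusted p = 0.323). Napa, which encodes the SNARE disassembly factor alpha-SNAP (0.45), and Cacna1a, the P/Q-type calcium channel (0.39), followed. Toward the amygdala, Unc13c (Munc13-3, a priming factor) had -1.26 ± 0.121 on the transcript cluster with its largest difference (adjusted p = 1.67e-08). All transcript clusters of Unc13c passed, with differences from -0.41 to -1.26, and each counts among the 47. Otof, which encodes the calcium sensor otoferlin, had -0.84 ± 0.052 (adjusted p = 8.83e-12) and Dnm3, a dynamin of endocytosis, had -0.57. The genes of GABA synthesis and vesicular loading Gad2 (-0.79) and Slc32a1 (-0.54) were higher in the amygdala as well. Both are also among the inhibitory neuron markers, of which Pvalb went the other way. Synaptophysin (Syp, -0.04, adjusted p = 0.715) did not pass. In the comparisons of genotype, of the interaction and of time, 0 of the 81 genes passed. At an unadjusted p under 0.05, limma gave 0 to 16 of 93 transcript clusters, against 1.92% to 17.9% of all. The 16 came in the interaction, where 17.4% of all transcript clusters had such a p.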

How the data were processed

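RNA pooled from 5 to 10 mice was measured per array on 20 Affymetrix Mouse Gene 1.0 ST arrays, 1 per region, genotype and time point. The authors corrected background, quantile-normalized and summarized probes by RMA in the Affymetrix Expression Console (version and annotation build not given in the sources used here), and the deposited values are log2 levels. RMA compresses changes of dim genes, and the number of arrays limits the precision. All 28853 transcript clusters were used with no filter, all 20 arrays were mapped to samples, and no arrays were identical.

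Differences were fitted with limma 3.58.1 (lmFit, eBayes, two-sided) in R 4.3.3, and p-values were adjusted by the Benjamini-Hochberg method over the whole table. The genotype effect used the 10 arrays of a region and an adjusted p of 0.1, the limit of the study's methods; other comparisons used all 20 arrays and 0.05. Changes over time took the 4 groups as replicates. Single-array changes were counted at 1.5-fold with no test. Scripts were tested on simulated data. Promoters came from a RefSeq table, read with Python 3.11.15.

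The genes and lists were chosen with earlier results of these data known. Named were genes called for genotype, interaction or time, the 10 largest region differences called in each direction, core release genes, genes past 1.5-fold on an array, and the 5 smallest p-values of each genotype and time comparison. Further genes of a family were named to complete it, after their values were seen. Alternatives were a further quantile normalization, median centring, a level filter, trended robust variance, array weights, a replicate block, t-tests, all 20 arrays in the genotype fit and leaving out each array.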

Additional observations from a re-analysis of the deposited data

Results flagged for a closer look

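Within groups of 5 arrays, 1 array stood apart from the rest by Dixon's test in 8 of 196 groups (4.08%), and chance flags about 1 in 20. Cplx2 was lowest at 8.48 on the WT amygdala array of 1 wk and at 8.80 on the DKO hippocampus array of 48 hr. Cplx3 was highest at 6.53 on the WT amygdala array of 48 hr and at 6.68 on the DKO amygdala array of 1 hr. Rab3d was highest at 6.09 on the DKO amygdala array of 0 hr. Snap25 was lowest at 12.10 on the DKO amygdala array of 48 hr, 1 of the 2 arrays with the lowest mean levels. Syn2 was highest at 10.12 on the WT amygdala array of 0 hr and at 9.63 on the WT hippocampus array of 1 hr.

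For 10 genes, WT and DKO mice moved in opposite directions from baseline at all 4 later time points of a region. Of all transcript clusters 9.81% did so in the amygdala, where 4 of the 59 genes did (Rims3, Stx11, Syt14 and Vamp5), and 6.82% in the hippocampus, where 6 did. All 4 changes of a group share 1 baseline array, and these differences were not tested in this form. The WT hippocampus baseline array had a mean of 8.16 over the 59 genes, the lowest of the WT arrays. In the hippocampus the mean WT change was 0.14 for Cplx1, 0.17 for Rab3c, 0.27 for Rims2, 0.18 for Stx19, 0.30 for Sv2c and 0.24 for Syt16, and DKO arrays were below their baseline for all 6 genes. In the amygdala the mean WT change was 0.19 for Rims3 and 0.48 for Stx11, with DKO arrays below baseline, and -0.43 for Syt14 and -0.12 for Vamp5, with DKO arrays above baseline.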

How the results depend on the processing

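Of the 24 genes called between the regions, 22 kept their call under every alternative that tested them (Cplx3 and Stx19 lay below the median level and were not tested with that filter), and Stx3 and Syn1 did not. With other settings the number of genes higher in the hippocampus was 9 to 10 and of those higher in the amygdala 14 to 21, and leaving out each array gave 8 to 9 and 14 to 17. In WT mice 5 genes were higher in the hippocampus after a further quantile normalization, and in DKO mice 14 were higher with each array median-centred. With each array median-centred, Rims1 (0.0178), Rims4 (0.00249) and Rab3a (0.000719) changed sign between the regions, all near 0. Without single arrays the sign also turned for Rims1 (-0.0499 to 0.0211), Rims4 (-0.0539 to 0.00729) and Rab3d (-0.0286 to 0.0519). The cause was not tested. The call of Stx3 was lost without the WT amygdala array of baseline or 1 wk, the DKO amygdala array of baseline or 0 hr, the WT hippocampus array of 1 hr or 1 wk, or the DKO hippocampus array of 0 hr, 1 hr or 1 wk (0.13 to 0.14). That of Syn1 was lost without the WT amygdala array of 1 hr or 48 hr, the DKO amygdala array of baseline, 0 hr or 1 hr, the WT hippocampus array of baseline, 0 hr or 48 hr, or any DKO hippocampus array but that of 1 wk (-0.17 to -0.15).

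Genotype calls stayed at 0 under every alternative, with the t-tests included. The calls on time stayed at 0 except that the difference between genotypes in the change at 1 wk ranged from 0 to 2 without single arrays. The 2 came without the hippocampus WT baseline array. Without both 48 hr DKO arrays, an alternative chosen after seeing the data, 9 and 17 genes were called between the regions and 0 for genotype. On single arrays, the mean of both baselines as reference gave 0 above and 0 below, a 1.3-fold limit 29 and 11, and a further quantile normalization 2 and 0.

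Deviations of arrays with the same time point correlated from -0.42 to 0.23 between genotypes (over 0.1 for 4 of 10 pairs) and from -0.39 to 0.53 between regions (over 0.1 for 6 of 10). These correlations cannot decide whether the regions came from the same mice, which is not stated. The main fits took the arrays as unpaired, with a block as an alternative. With time point as a replicate block, genotype calls were 0 in both regions, and with genotype and time point as a block the regions differed for 9 and 16 genes, WT mice for 3 and 14, DKO mice for 12 and 13, and the interaction for 0.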
